A study of Prunus persica with 12 samples.

Results

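'Jin Xiu Huang Tao' (JX), a peach (Prunus persica) cultivar whose name calls it a yellow peach, was set against 'Hu Jing Mi Lu' (HJ) by RNA-seq of the fruit mesocarp, the edible flesh. The comparison used 4 of the 12 libraries of the series: the 2 titled JX2 and the 2 titled HJ2, chosen by cultivar and by the stage number 2 in the titles. Both groups were described as soft melting and strongly aromatic, with Brix (soluble solids, mostly sugar) of 12 in JX2 and 12.1 in HJ2. The other 8 libraries, used for context, were 'Yu Lu' (YL2, soft melting, strong aroma, Brix 14.9) and 'Zhong Hua Shou Tao' (ZH2, hard melting, slight aroma, Brix 18) at stage 2, and HJ at stage 1 (HJ1, soft melting, slight aroma) and stage 3 (HJ3, soft melting, strong aroma, Brix 12.5), 2 libraries each.

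Peach flesh is white or yellow according to how much carotenoid pigment it keeps. White flesh is known to carry an active carotenoid cleavage dioxygenase gene, CCD4, whose enzyme breaks carotenoids into colourless and scented products, and yellow flesh carries alleles that do not work. During ripening, ethylene drives softening, in which enzymes take apart the pectin of the cell wall, and the synthesis of lactones and terpenes that give the fruit its smell. The series was designed around softening and these volatiles; flesh colour is not in the labels, and no measurement of firmness or volatiles enters the results.

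Identifiers in the files came without gene names, and 0 of the 27864 matched the annotation table at hand. The results name identifiers alone, without function, position or sequence, and the labelled tissue was not checked against marker genes. Beyond the count of any group, at most 2 identifiers were taken in each direction, by a rule: the called gene with the largest log2 difference and the one with the largest difference in mean level. Any other identifier named was chosen after its values were seen. For the genes taken by rule, tests of JX2 against YL2 or ZH2 reuse the JX2 libraries that entered the choice. Their p-values are therefore a description and add no support. Levels are RPKM, reads scaled by the length of the gene and the depth of the library. Depth, worked back from these values, was 1699524 and 1524800 reads in the JX2 libraries and 2440928 and 3222252 reads in the HJ2 libraries. Libraries of a group were not copies of each other: the chi-square of their reads per degree of freedom was 1.75 in JX2 and 1.795 in HJ2, where sampling noise alone gives about 1. Whether the libraries of a group stem from different trees or harvests is not in the labels. Every limma p-value below thus sets a difference against a spread between libraries that may be technical. That spread was estimated from the libraries of all groups. The stage numbers do not say how ripe the fruit were, so cultivar and ripeness cannot be told apart in JX2 against HJ2.

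The largest difference was in a gene that was almost silent in JX2. The gene ppa006109m stood at 6.05 and 2.84 RPKM in the JX2 libraries, on 27 reads in all, against 999 and 1174 RPKM in the HJ2 libraries, on 11492 reads. Its mean was 244-fold lower in JX2, and the log2 difference was -7.70 ± 0.22 (SE, limma adjusted p = 2.42e-08). Because the JX2 level rests on few reads, the ratio depends on the library. The ratio was 382.5 without JX2 replicate 1 and 179.5 without JX2 replicate 2. JX2 was also the lowest of the 6 groups by a wide margin. Levels were 1803 and 1880 RPKM in YL2, 930 and 868 RPKM for ZH2, 287 and 320 RPKM in HJ1, and 854 and 1036 RPKM in HJ3, so neither JX2 library came near any of the other 10. JX2 minus YL2 was -8.47 ± 0.22 and JX2 minus ZH2 was -7.43 ± 0.22 on the log2 scale (SE, limma adjusted p = 7.00e-09 and 7.43e-09).

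The second gene that was lower in JX2 was chosen for its loss of level rather than its ratio. The gene ppa010382m stood at 2644 and 2435 RPKM in JX2 and at 9339 and 9536 RPKM in HJ2. The mean fell by 6898 RPKM in JX2, a 3.72-fold difference. The log2 difference was -1.89 ± 0.11 (SE, limma adjusted p = 9.21e-07), and the groups did not overlap. Its share of the RPKM sum was 0.343% ± 0.0215 in JX2 and 1.24% ± 0.0210 in HJ2 (mean ± SD, n = 2). Its level in JX2 lay closer to those of the other cultivars than to that of HJ2. In YL2 its level was 2513 and 2265 RPKM, and JX2 minus YL2 was 0.09 ± 0.11 (SE, limma adjusted p = 0.607). In ZH2 it stood at 3325 and 3175 RPKM, and JX2 minus ZH2 was -0.36 ± 0.11 (SE, limma adjusted p = 0.0404). Within HJ it had its highest level at stage 2, with 1290 and 1547 RPKM in HJ1 and 4419 and 4964 RPKM in HJ3.

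The gene with the largest log2 rise was read in JX2 and in HJ3 but not in HJ2. The gene ppa018303m stood at 87.0 and 85.8 RPKM in the JX2 libraries, on 245 reads, and had 0 reads in both HJ2 libraries. Taking 3 reads in the shallower HJ2 library as the limit that a count of 0 allows, it was at least 61.8-fold higher in JX2; such limits cover counting error only. The log2 difference was 6.45 ± 0.29 (SE, limma adjusted p = 2.02e-07). The gene also had 0 reads in HJ1, but 42.0 and 37.1 RPKM in HJ3. In YL2 and ZH2 it was near the limit of counting, with 4 and 7 reads over both libraries. JX2 was higher than each, by 5.56 ± 0.29 against YL2 and 5.14 ± 0.29 against ZH2 (log2 ± SE, limma adjusted p = 4.26e-07 and 1.29e-06).

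Among the genes called, the largest gain in level was in one of the most abundant transcripts of the flesh. The mean of ppa012576m, described below, differed by more, 18044 RPKM, but that gene was not called. The gene ppa012574m stood at 23181 and 23102 RPKM in JX2 and at 7971 and 8318 RPKM in HJ2, a gain of 14997 RPKM and a 2.84-fold difference. It took 3.13% ± 0.0209 of the RPKM sum in JX2 and 1.07% ± 0.0346 in HJ2 (mean ± SD, n = 2). The log2 difference was 1.51 ± 0.10 (SE, limma adjusted p = 3.14e-06). Its level in JX2 was above that in every other library: 11985 and 11320 RPKM in YL2, 14606 and 12757 RPKM for ZH2, 1581 and 1832 RPKM in HJ1, and 13324 and 13835 RPKM in HJ3. JX2 exceeded YL2 by 0.99 ± 0.10 and ZH2 by 0.76 ± 0.10 (log2 ± SE, limma adjusted p = 3.47e-05 and 0.000392). For scale, JX2 differed from YL2 at 23.9% and from ZH2 at 16.6% of all genes tested.

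**Figure D1:**
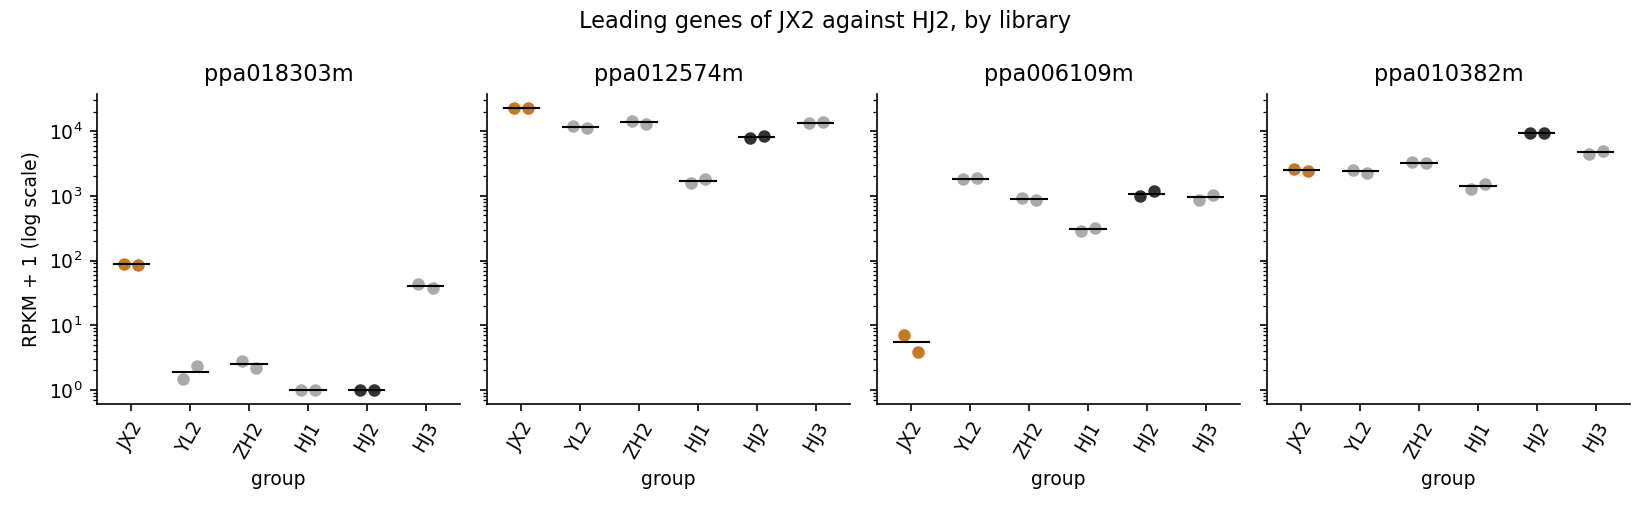
RPKM + 1 on a log axis for the 4 genes chosen by rule, with a point for each library and a line at the mean of each group of 2; JX2 is orange and HJ2 black. The gene ppa006109m lies below 10 RPKM in JX2 alone, whereas ppa010382m in JX2 lies beside YL2, and ppa018303m is above 10 RPKM in JX2 and HJ3 alone.

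Across the whole table, 2515 of 15217 genes, or 16.5%, differed between JX2 and HJ2 (limma on log2(RPKM + 1), adjusted p under 0.05). In JX2, 809 genes (5.32%) were higher and 1706 (11.2%) lower. All 2515 had non-overlapping libraries, as a called gene nearly always does with 2 libraries in each group. This adds no support to the calls, and the share of all 15217 genes without overlap was not counted. Most differences were moderate: the median log2 difference was 1.16 among the higher genes and -1.12 among the lower. Past a log2 difference of 1 lay 484 higher and 994 lower genes, past 3 lay 43 and 62, and past 5 lay 7 and 5.

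The balance between higher and lower genes depends on how libraries are scaled. Rescaling each library by its median ratio to the others moved the median over all genes by 0.13 on the log2 scale, to -0.03, against -0.15 as deposited. That rescaling gave 1026 higher and 1163 lower genes, and higher genes made up 46.9% of the calls, against 32.2% as deposited. All 809 higher genes were still called higher and 1163 of the 1706 lower genes still called lower. The spread also rests on few libraries. A fit of the JX2 and HJ2 libraries alone called 1291 genes, and leaving out HJ2 replicate 1 or 2 left 1241 and 1455 calls. A core of 375 higher and 632 lower genes was called in the same direction whichever single JX2 or HJ2 library was left out.

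Of the 12702 genes that were not called, 6502 had a 95% interval of the log2 difference that lay inside -1 to 1, so a 2-fold difference on the log2(RPKM + 1) scale was outside their intervals. For the remaining 6200 the interval reached past one of these bounds, so a difference of that size lay within it.

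**Figure D2:**
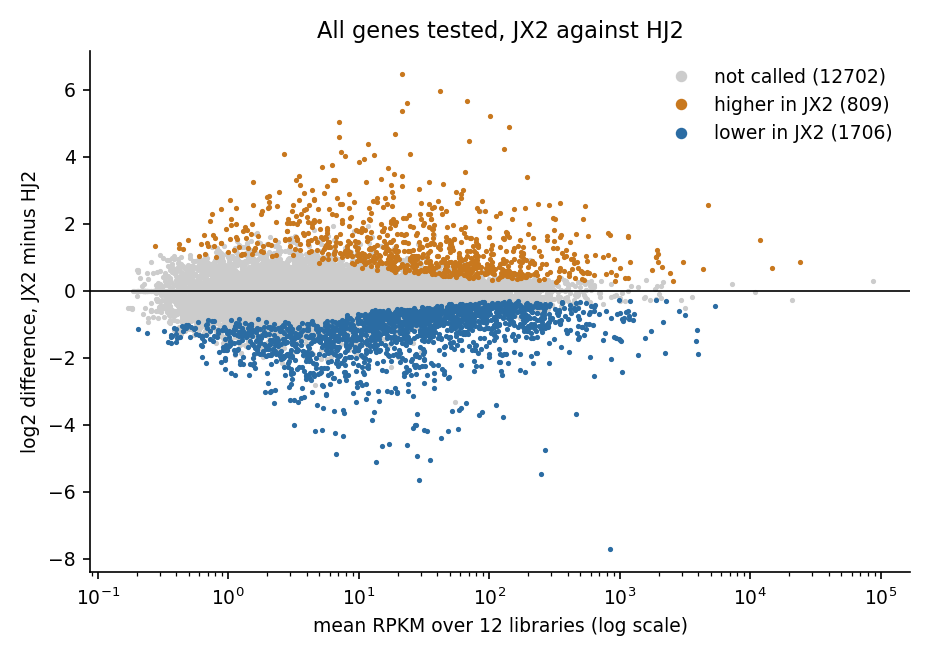
Log2 difference JX2 minus HJ2 of each of the 15217 genes tested against its mean RPKM over the 12 libraries on a log axis, with the 809 higher genes in orange and the 1706 lower genes in blue. The gene ppa006109m is the lowest point, near -7.70, and grey genes fill a band that narrows to the right.

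Calls were most frequent among abundant genes. In the highest tertile by mean RPKM over the 12 libraries, 528 genes were higher (10.4%) and 955 lower (18.8%) in JX2. In the middle tertile the numbers were 186 (3.67%) and 450 (8.87%), and in the lowest tertile 95 (1.87%) and 301 (5.94%). The precision moved with this: the interval lay inside -1 to 1 for 71.0% of the highest tertile and 23.7% of the lowest. Gene length moved with the lower calls. Of the shortest tertile, with lengths up to 999 bp, 714 genes (14.1%) were lower in JX2, against 599 (11.8%) of the middle and 393 (7.75%) of the longest tertile. The higher calls were 238, 298 and 273 in the same order. The median log2 difference of all genes was -0.27 in the shortest, -0.17 in the middle and -0.07 in the longest tertile. The part of gene length in the lower calls was not tested.

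The transcript pool of JX2 was more concentrated than that of HJ2. The 10 most abundant genes of each library took 31.3% and 30.6% of the RPKM sum in JX2 and 23.9% and 24.0% in HJ2. The effective number of genes, a measure from Shannon entropy (its exponential) that falls as few genes dominate, was 771 and 803 in JX2 and 1141 and 1121 in HJ2. Neither measure overlapped between the groups; an exact two-sided permutation test of 2 libraries against 2 cannot go below 0.333 and gave that value for both. An RPKM of at least 1 in both libraries was reached by 11665 genes in JX2 and 12428 in HJ2, whose libraries are deeper; the part of depth was not tested. JX2 and HJ2 had 8 of their 10 most abundant genes in common. Of the 12 genes in either list, 5 were higher and 3 lower in JX2, and 4 were not called. In the highest tertile by mean RPKM, 10.4% were higher and 18.8% lower, against 5.32% and 11.2% of all genes tested. With 12 genes, chosen for their level, the count is a description. The most abundant gene of the series, ppa012576m, stood at 103403 and 104169 RPKM in JX2 and at 86511 and 84972 RPKM in HJ2. Its log2 difference of 0.28 ± 0.10 did not pass the test (SE, limma adjusted p = 0.0845). Even so, its share of the RPKM sum was 14.02% ± 0.0136 in JX2 and 11.25% ± 0.118 in HJ2 (mean ± SD, n = 2). As a description of the chosen genes, the 809 higher ones made up 26.5% and 26.1% of the RPKM sum in the JX2 libraries and 12.9% and 13.2% in the HJ2 libraries. The 1706 lower ones made up 15.2% and 15.4% in JX2 and 30.01% and 29.46% in HJ2.

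A small set of genes was read in only one of the groups. At a mean of at least 10 RPKM in JX2, 10 genes had 0 reads in both HJ2 libraries. Their JX2 means ran from 15.1 to 86.4 RPKM. At an equal share of reads the HJ2 libraries would have held between 50.9 and 430.3 reads of each, and as bounds they were at least 7.44-fold to at least 61.8-fold higher in JX2. These genes were chosen for this pattern, so their difference between JX2 and HJ2 is a description, with no test. Of the 10, 6 had 0 reads in all 6 HJ libraries, so no read of them was found at any HJ stage; 5 of the 6 were read in YL2 or ZH2. The exception was ppa016741m, at 17.7 and 14.5 RPKM in the JX2 libraries on 33 reads and with 0 reads in each of the other 10 libraries. Another 3 of the 10 genes, ppa018303m among them, had 0 reads in HJ2 but at least 5 RPKM in HJ3. How often other genes with 0 reads in HJ2 show these patterns was not counted.

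In the other direction, 12 genes with a mean of 10.4 to 49.4 RPKM in HJ2 had 0 reads in both JX2 libraries, again by choice and so without a test. The JX2 libraries are shallower, and at an equal share of reads they would have held 12.5 to 137 reads of each of these genes. The bounds were correspondingly looser, at least 2.01-fold to at least 21.5-fold lower in JX2. For 11 of the 12, the mean in HJ3 was also under 30% of that in HJ2, and 8 of the 12 had a higher mean in HJ1 than in HJ2. The shares of all genes with these patterns were not counted, and the 30% bound was not among the planned rules. The exception to the first of these counts was ppa013503m, with 0 reads in JX2 and YL2. It stood at 53.5 and 37.7 RPKM in HJ1, 48.8 and 50.0 RPKM in HJ2, 34.1 and 46.0 RPKM in HJ3, and 45.6 and 35.1 RPKM in ZH2. It thus had reads in every HJ and ZH2 library and in no JX2 or YL2 library. HJ3 minus HJ1 was -0.18 ± 0.23 and did not pass the test (log2 ± SE, limma adjusted p = 0.579).

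**Figure D3:**
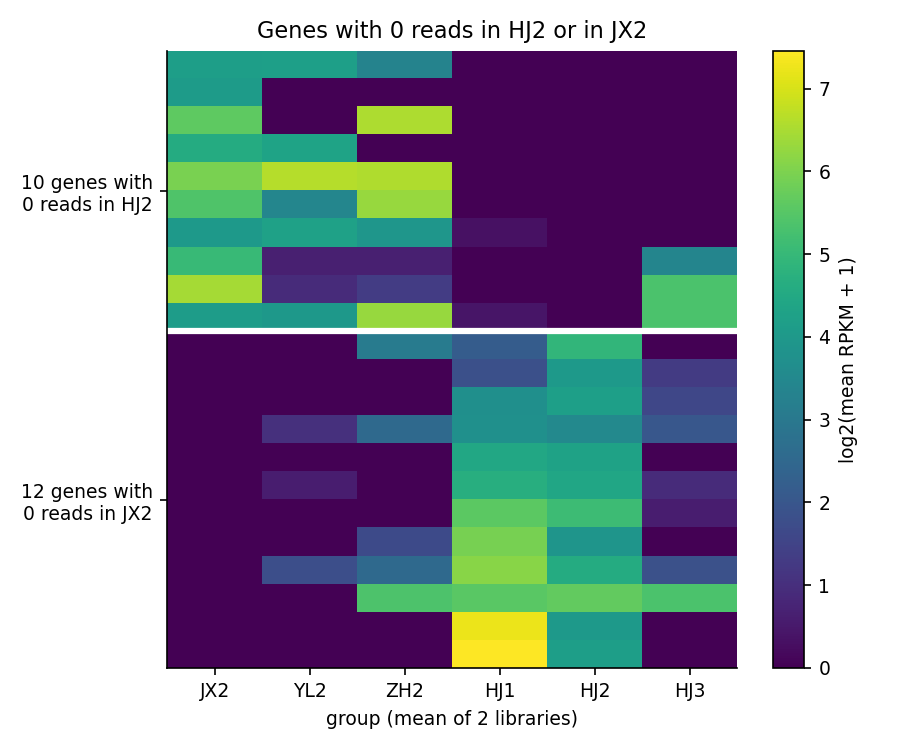
Mean level, as log2(mean RPKM + 1), in each of the 6 groups for the 10 genes with 0 reads in HJ2 (above the white line) and the 12 with 0 reads in JX2 (below it), each row being a gene. In the upper block most HJ cells are dark at every stage, and in the lower block ppa013503m is the row that stays light in HJ3.

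The genes called between JX2 and HJ2 were then followed in HJ3 against HJ1, the stage difference within HJ. The group means of these comparisons share no library, but all 12 libraries set the filter and the variance of each gene, which both comparisons use. Among the 809 genes higher in JX2, 425 (52.5%) were higher in HJ3 than in HJ1 and 110 (13.6%) were lower. Among the 1706 genes lower in JX2, 120 (7.03%) were higher in HJ3 and 1116 (65.4%) were lower. Over all 15217 genes tested, 10.5% were higher and 32.5% lower in HJ3. Put the other way, the shared genes were 26.6% of all genes higher in HJ3 and 22.6% of all genes lower in HJ3. The median log2 difference HJ3 minus HJ1 was 0.57 among genes higher in JX2 and -0.99 among genes lower in JX2, against -0.37 among all genes.

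Abundant genes are called more often in both comparisons, so the same was read within the highest tertile by mean RPKM. There, 58.7% of the genes higher in JX2 were higher in HJ3, against 18.4% of the whole tertile, and 68.3% of the genes lower in JX2 were lower in HJ3, against 40.9% of the whole tertile. The direction also stood after rescaling by the median ratio, which moved the HJ3 against HJ1 calls to 2531 higher and 3281 lower, against 1598 and 4946 as deposited. The shares were then 60.5% of the genes higher in JX2, against 16.6% of all genes, and 57.4% of the genes lower in JX2, against 21.6%. A part of the genes had no matching call: 274 of the higher genes and 470 of the lower genes were not called between HJ3 and HJ1. A further 110 of the higher genes and 120 of the lower genes were called the opposite way. The gene ppa006109m went the opposite way, lower in JX2 but higher in HJ3 than in HJ1 by 1.63 ± 0.22 (log2 ± SE, limma adjusted p = 0.000129), as did ppa010382m, by 1.73 ± 0.11 (limma adjusted p = 2.94e-07).

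**Figure D4:**
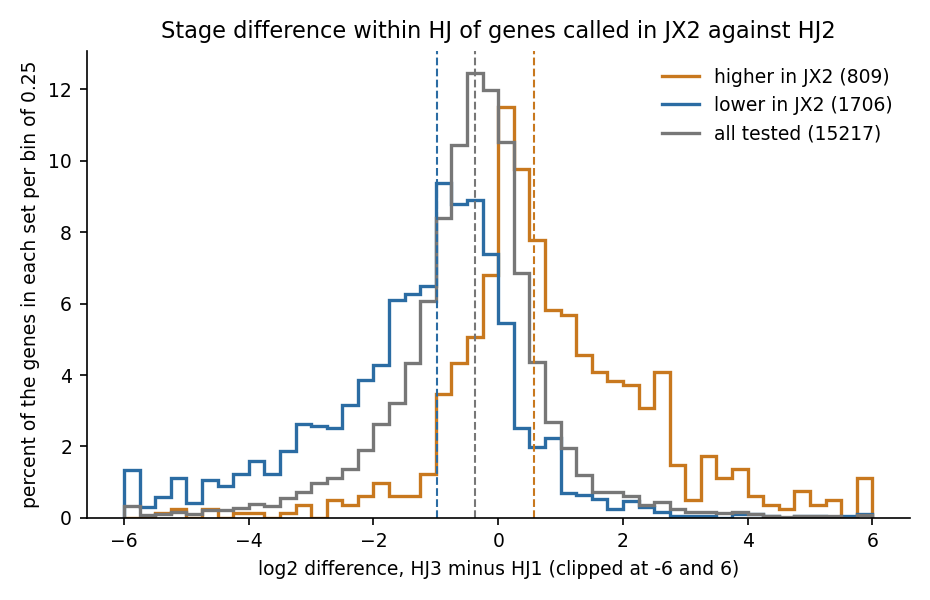
Distribution of the log2 difference HJ3 minus HJ1, in bins of 0.25, for the 809 genes higher in JX2 than in HJ2, the 1706 lower and all 15217 tested, each as percent of its set, with dashed lines at the medians of 0.57, -0.99 and -0.37. The set higher in JX2 lies to the right of all genes and the set lower in JX2 to the left.

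Large changes among well-expressed genes were read in the same way. Of 1193 genes tested with a mean of at least 100 RPKM in JX2 or HJ2, 19 were higher in JX2 by a log2 difference of at least 2, with JX2 means up to 6903 RPKM. In HJ3 against HJ1, 18 of these 19 were higher and 0 lower, where 26.6% of all 1193 were higher and 45.9% lower. A further 33 were lower in JX2 by at least as much, with HJ2 means up to 1844 RPKM. Of those, 22 were lower and 9, ppa006109m among them, were higher in HJ3.

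Levels in all libraries showed where HJ2 lay. Over the 809 genes higher in JX2, the median log2(RPKM + 1) was 5.14 and 5.06 in JX2 and 3.76 and 3.80 in HJ2, which follows from their choice. It was 4.93 and 4.90 in YL2, 5.08 and 5.18 for ZH2, 4.32 and 4.47 in HJ1, and 5.29 and 5.25 in HJ3. Over the 1706 lower genes it was 3.73 and 3.72 in JX2, 3.78 and 3.82 in YL2, 3.97 and 4.03 for ZH2, and 5.16 and 5.13 in HJ1. Those genes stood at 4.94 and 4.91 in HJ2 and 3.92 and 3.89 in HJ3. In both sets the YL2, ZH2 and HJ3 medians thus lay nearer to JX2 than to HJ2. Genes chosen for an HJ2 level unlike JX2 tend to have an HJ2 level unlike the other groups too, so these distances from HJ2 are given without a test.

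**Figure D5:**
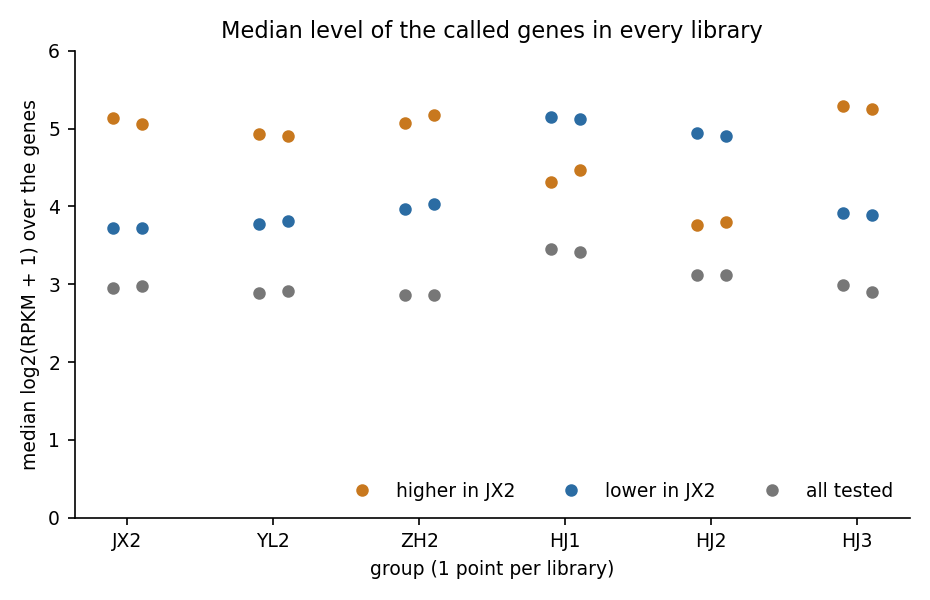
Median log2(RPKM + 1) in each library over the 809 genes higher in JX2 (orange), the 1706 lower (blue) and all 15217 tested (grey), with a point for each library. Orange lies above blue in JX2, YL2, ZH2 and HJ3 and below it in HJ1 and HJ2.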

How the data were processed

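RNA of frozen fruit mesocarp was sequenced from Illumina libraries, per the labels' protocols. The authors deposited a table of RPKM per gene for each library, per the file headers. The submitters' processing notes list DESeq 1.10.1, HTSeq 0.5.3, TopHat 1.4.0 and Bowtie 0.12.8, without a role. Build, annotation, strand setting and the handling of multiply matching reads were not given in the sources used here, so values of near-identical or overlapping genes are uncertain.

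Each RPKM was a whole multiple of the worth of a single read. Depths, gene lengths and reads were worked back from this for 100% of the 17316 genes above 0 in at least 2 libraries, within 0.001 reads (Python 3.11.15, numpy 2.4.6, pandas 2.3.3). An RPKM of 0 is therefore 0 reads. Floors for a count of 0 cover counting error only, whereas the intervals of log2 differences come from the limma fit.

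Genes reaching 1 RPKM in 2 or more of the 12 libraries were tested. All 12 libraries entered a single limma 3.58.1 fit (R 4.3.3) on log2(RPKM + 1) with 6 group means, 6 residual degrees of freedom and a variance trend. The code was run on simulated reads in which few genes changed, in JX2 alone, with the same spread setting for every gene. That run checks the code, and does not show how the fit behaves on these data. A log2 difference on this scale understates the change of low genes. P-values were adjusted over all 15217 genes by the Benjamini-Hochberg method. Identifiers were named by rule among called genes with non-overlapping libraries and a mean of at least 10 RPKM in the higher group, at most 2 in each direction. Genes and lists were chosen with earlier results of these data known; 14 lists that search product names, markers of other tissues among them, were not used, since no identifier had a product name.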

Additional observations from a re-analysis of the deposited data

Results flagged for a closer look

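For each of the 4 genes chosen by rule, the difference between JX2 and HJ2 was itself different from that between at least 1 other cultivar and HJ2, by the test of JX2 against that cultivar in the same limma fit. The genes were chosen for their JX2 level set against HJ2, and these tests reuse the JX2 libraries. A gene chosen in this way tends to differ from the other cultivars too. The values, given as a description, are log2 differences. For ppa006109m they were -8.47 for JX2 minus YL2 and -7.43 for JX2 minus ZH2. For ppa018303m they were 5.56 and 5.14, and for ppa012574m 0.99 and 0.76. For ppa010382m JX2 minus ZH2 was -0.36, while JX2 minus YL2 did not pass the test. Groups of 2 libraries were too small for a test of single outlying libraries.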

How the results depend on the processing

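Each of the 4 genes chosen by rule kept its direction in all 13 alternatives. These genes were chosen for large differences between the same libraries, so the choice largely fixed this outcome, which adds no support. The log2 difference ranged from -8.14 to -6.87 for ppa006109m and from -1.95 to -1.71 for ppa010382m. It ranged from 4.19 to 9.76 for ppa018303m and from 1.48 to 1.69 for ppa012574m. In the fit of the JX2 and HJ2 libraries alone, the limma adjusted p of ppa012574m was 0.0214. The 2515 calls (809 higher, 1706 lower) became 1291 (414 and 877) in a fit of the JX2 and HJ2 libraries alone. Leaving out a library in turn gave 1241 to 1782 calls, with 450 to 570 higher and 791 to 1222 lower. With libraries scaled without their 10 most abundant genes, 1113 were higher and 1134 lower. Limma voom on the whole reads called 2764. Calls with a log2 difference of at least 1 (484 higher, 994 lower) became 281 and 487 at a pseudocount of 5, and 283 and 568 in the fit of 4 libraries; the lower ones became 592 without HJ2 replicate 1. With no library left out, the share of genes higher in JX2 that were higher in HJ3 than in HJ1 ranged from 48.9% to 60.5%. That of lower genes that were lower ranged from 57.4% to 66.3%. Over all genes, 10.5% were higher and 32.5% lower in HJ3 as deposited. After rescaling by the median ratio these were 16.6% and 21.6%, so the base moves with the setting. The lead of JX2 over HJ2 in the share of the most abundant genes, 6.996 percentage points for 10 genes, was 5.004 for 100 genes and 5.88 counted in reads, and 6.62 to 7.37 with a library left out. Replicate numbers are not said to mark a shared batch, and deviations of same-numbered JX2 and HJ2 libraries were not correlated across genes (r = -0.03); with a replicate block the calls were 2400. The cause of these shifts was not tested. Alternatives for the gene lists were not run, and the fit of 4 libraries gives no HJ3 against HJ1. With 2 libraries in each group and 1524800 reads in the shallower JX2 library, low and short genes are the least certain.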
